A study of Mus musculus with 53 samples.

Results

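The Tmprss11 membrane proteases Tmprss11a, Tmprss11d, Tmprss11e, Tmprss11f and Tmprss11g, the kallikrein-related peptidases Klk5, Klk7, Klk8 and Klk10, and the kallikrein inhibitor Spink5 were followed through 53 arrays of mouse epithelial tissues. These 10 genes were listed by symbol and were chosen by their measured levels, which earlier results on the same arrays had shown to be high in particular tissues and ages, so their levels are given as a description. The fit over all genes also made calls for them, which are counted only beside the share of all genes called, with no p-value. All 10 were found in both tables of the series, 1 probe set each, among 19938 named genes on the Gene ST arrays and 18194 on the older 3′ arrays. The Gene ST table held whole cornea of wild-type CB6 mice at E14.5, E15.5, E17.5, P3, P7, P14 and P28 (E for embryonic day, P for postnatal day). It also held E18.5 trachea and E18.5 arrays labelled lung, both wild type by their titles, and every group of this table had 3 arrays. In the 3′ table, wild-type CB6 mice gave dorsal skin of 3 ages (E14.5, then E16.5, then E18.5) and, for E18.5 alone, esophagus, stomach and proximal small intestine, with 3 arrays per group. Its bladder groups were E14.5 (2 arrays) and E16.5 (3), both wild type, and E18.5 (3), where the animals carried 1 lost copy of Get1 (Get1 +/-), the transcription factor gene also called Grhl3, so age and genotype cannot be told apart in that group.

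Tmprss11 proteins are trypsin-like enzymes anchored in the cell membrane by an N-terminal segment, and they are known from the surface layers of airway, oral and other moist epithelia. Klk5 and Klk7 are secreted into the outermost epidermis, where they cut the desmosomal proteins that hold dead cells together and so let the skin shed. Spink5 encodes LEKTI, an inhibitor that holds these kallikreins back, and its loss in humans causes Netherton syndrome, a disease of excessive shedding. In the RefSeq gene order the Tmprss11 genes lie side by side on chromosome 5, as Tmprss11c, Tmprss11d, Tmprss11a, Tmprss11g, Tmprss11f, Tmprss11b and Tmprss11e, and the kallikreins form a row on chromosome 7.

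Levels are log2(intensity + 16) after quantile normalization within a table, so that 4 is an intensity of 0, and they are not compared between genes or between tables. Olfactory receptor genes, which these tissues should hardly use, served as a gauge of background. A group level is described as above background where it exceeds the 95th percentile of 1027 such genes on the Gene ST arrays (7.58 to 8.54 by group) or of 39 on the 3′ arrays (5.3 to 6.25). The size of a difference is uncertain where a group is not above background, since its level there cannot be told from background. A gene is called changed where the moderated test of limma gave a Benjamini-Hochberg adjusted p under 0.05 over all genes of the table and the groups differed at least 2-fold. Nothing in the labels says that arrays of a group came from separate litters or animals, so p-values measure the spread between arrays. In these bulk tissues fewer cells of a type and less RNA per cell cannot be told apart.

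Several arrays stood apart or went against their labels. The 3 arrays labelled lung had 8 of 8 thymocyte markers above background, with Rag1, the recombinase gene of developing lymphocytes, at 14.22 ± 0.06 and Cd4 at 13.34 ± 0.06 (SD, n = 3). Of 7 lung alveolar and airway markers 3 were above background there, with array means of 7.54 to 7.62, against 4 of 7 and 7.85 to 7.95 in trachea. The surfactant gene Sftpc, of that list, was at 6.83 ± 0.13 on the arrays labelled lung. They are called the arrays labelled lung throughout. The 3′ arrays fell into 2 sets, with 9 arrays of E16.5 skin, E18.5 skin and small intestine in the one and 17 arrays of E14.5 skin, bladder, esophagus and stomach in the other. Correlations of deposited log2 values were 0.68 to 0.98 within the first, 0.81 to 0.99 within the second and only 0.16 to 0.39 between them, and the bacterial spike-in control BioB (its 3′ probe set) read 6.28 to 7.56 in the first and 10.41 to 11.67 in the second. In comparisons across these sets the set and the group cannot be told apart. Small intestine replicate 4 had stratified epithelium markers at a mean of 10.97, against 4.99 and 5.82 in replicates 1 and 3. By their titles, E14.5 skin replicates 1 and 2 may be 1 sample run again, and with their mean as 1 sample the E16.5 skin against E14.5 skin comparison called 23 other pathway genes, as with both. The lung alveolar and airway list spanned means of 5.07 to 8.49 over the E18.5 skin arrays, with 6 of 7 genes above background.

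The cornea series carried the changes of the Tmprss11 group. Tmprss11a, whose human counterpart is also known as esophageal cancer-related gene 1, read 7.03, 6.11 and 6.25 at E14.5. The E15.5 arrays read 8.59, 6.45 and 6.38, and those of E17.5 read 6.65, 6.77 and 9.19. After birth it read 9.41, 6.62 and 8.15 at P3, 11.01, 12.22 and 10.67 at P7, 12.19, 12.12 and 12.63 at P14, and 14.12, 14.21 and 14.21 at P28. The arrays up to P3 overlapped from age to age, with single high arrays at E15.5 and E17.5, while all P7 arrays were above all P3 arrays and all P28 arrays above all P14 arrays. In deposited intensity, the P28 corneas read 16285.08, 17041.68 and 17759.12, against 146.75, 62.63 and 73.28 in the E14.5 corneas.

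Tmprss11g, a rodent member of the family, was not above background at E14.5 or E15.5 and was above it from E17.5 on. Its arrays read 4.73, 5.01 and 4.8 at E14.5 and 7.73, 8.2 and 7.83 at E15.5. The E17.5 arrays read 8.37, 7.9 and 8.8. Those after birth read 9.84, 9.18 and 9.55 at P3, 11.67, 11.92 and 11.42 at P7, 11.91, 11.9 and 12.13 at P14, and 12.51, 12.64 and 12.47 at P28. The arrays did not overlap between E14.5 and E15.5, between E17.5 and P3, between P3 and P7, or between P14 and P28.

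The upstream sequences of both genes are shown because these neighbours had the widest ranges in the cornea, 7.71 and 7.69 on the log2 scale, beside those of Klk5 and Klk7, which carry the skin pattern. Each is the 250 bases before the annotated start in the RefSeq promoter table of build GRCm38.p6, 5′ to 3′ on the gene's strand, where 8 of the 10 genes matched. The windows are chr5:86468991-86469240 (minus strand) for Tmprss11a, chr5:86518601-86518850 (minus strand) for Tmprss11g, chr7:43842019-43842268 (plus strand) for Klk5 and chr7:43811044-43811293 (plus strand) for Klk7. Capitals mark every match, on either strand, to AGGAAG (an Ets-type core), ACCGGTT (a grainyhead-type sequence), TGANTCA (AP-1) or CCACCC (a Klf-type sequence).
Tmprss11a: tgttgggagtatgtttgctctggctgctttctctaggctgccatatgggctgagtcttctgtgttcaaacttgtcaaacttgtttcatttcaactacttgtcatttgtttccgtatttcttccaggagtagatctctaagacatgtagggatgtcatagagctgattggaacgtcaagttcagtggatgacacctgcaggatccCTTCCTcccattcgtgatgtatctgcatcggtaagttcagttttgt
Tmprss11g: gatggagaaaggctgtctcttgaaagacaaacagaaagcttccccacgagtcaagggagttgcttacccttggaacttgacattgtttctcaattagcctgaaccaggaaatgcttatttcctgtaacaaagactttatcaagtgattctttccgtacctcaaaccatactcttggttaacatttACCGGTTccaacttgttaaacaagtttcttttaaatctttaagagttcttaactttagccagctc
Klk5: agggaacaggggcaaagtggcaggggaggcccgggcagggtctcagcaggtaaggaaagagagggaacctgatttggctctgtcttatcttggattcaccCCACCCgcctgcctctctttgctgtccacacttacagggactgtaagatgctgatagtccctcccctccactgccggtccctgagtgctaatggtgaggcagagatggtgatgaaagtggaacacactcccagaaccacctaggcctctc
Klk7: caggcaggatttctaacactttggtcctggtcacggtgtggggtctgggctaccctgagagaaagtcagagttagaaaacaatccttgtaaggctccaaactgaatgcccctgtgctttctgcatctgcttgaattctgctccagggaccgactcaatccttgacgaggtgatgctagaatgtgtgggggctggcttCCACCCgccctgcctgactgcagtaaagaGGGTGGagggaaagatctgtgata
The match in Tmprss11a was to the Ets-type core, beginning 46 bases before the start on the opposite strand, and that in Tmprss11g was to ACCGGTT, beginning 65 bases before it. Klk5 had 1 match to CCACCC and Klk7 had 2. Among 32851 windows of the same length in the table, 29.5% held AGGAAG, 0.831% ACCGGTT, 6.75% TGANTCA and 28.1% CCACCC, and among the 8 matched genes 3, 1, 2 and 3 did. A match describes letters in a window and was not set against any binding measurement, and no marked match overlapped another.

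Tmprss11d, the human airway trypsin-like protease gene, read 5.56, 5.77 and 5.63 at E14.5, then 7.04, 7.68 and 8.1 at E15.5, 7.16, 7.02 and 5.88 at E17.5, and 5.93, 5.97 and 7.06 at P3. It then stood at 11.43, 11.66 and 10.32 at P7, 10.73, 9.86 and 10.82 at P14 and 11.96, 12.11 and 12.15 at P28. After birth its arrays thus separated between P3 and P7, where the lowest P7 array was above the highest P3 array. They separated again between P14 and P28, with P7 and P14 overlapping. Tmprss11e, also known as DESC1, had all embryonic and P3 arrays between 5.51 and 6.65, then 8.77, 9.73 and 8.67 at P7, 9.11, 8.72 and 8.69 at P14, and 11.89, 12.27 and 11.94 at P28. For Tmprss11e the arrays separated between P3 and P7 and again between P14 and P28, with P7 and P14 overlapping.

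Tmprss11f, which mice need for a full skin barrier, averaged 5.07 ± 0.25 at E14.5, 6.23 ± 0.41 at E15.5, 6.37 ± 0.31 at E17.5, 7.97 ± 0.64 at P3, 8.39 ± 0.47 at P7, 8.74 ± 0.25 at P14 and 9.14 ± 0.31 at P28 (SD, n = 3 each). Its arrays did not overlap between E14.5 and E15.5 or between E17.5 and P3, and neighbouring ages from P3 on overlapped. Spink5 read 6.4, 7.01 and 7.23 at E14.5, 8.29, 8.85 and 8.45 at E15.5, 8.07, 7.76 and 8.09 at E17.5, 7.84, 7.61 and 7.93 at P3, 8.25, 9.87 and 8.44 at P7, 9.63, 8.94 and 9.87 at P14, and 10.28, 10.9 and 10.25 at P28. Its E15.5 arrays were above all those of E14.5, the means of E17.5 and P3 were lower than that of E15.5, and the P28 arrays were above those of every younger age.

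**Figure D1:**
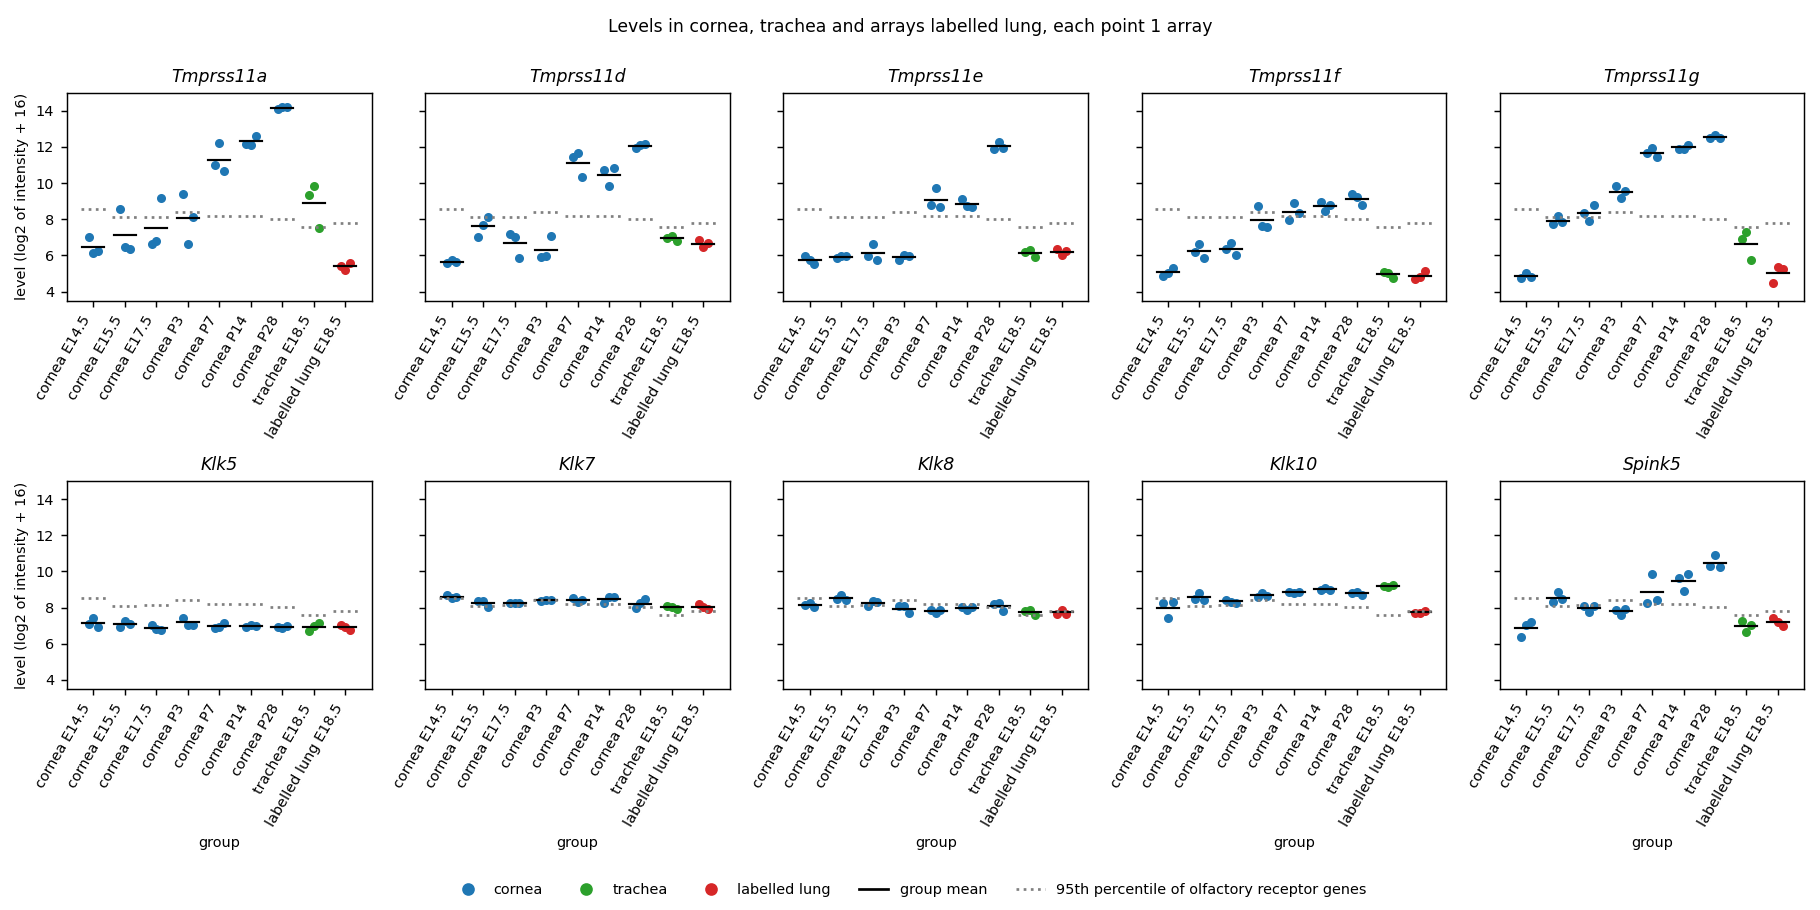
Level of each gene (vertical axis, log2 of intensity + 16) by group on the Gene ST arrays; points are arrays, black bars group means and dotted grey bars the 95th percentile of olfactory receptor genes. The 5 Tmprss11 genes and Spink5 end higher at P28 than at E14.5, with Tmprss11a at 14.12 to 14.21 in P28 corneas and 6.11 to 7.03 in E14.5 corneas, while Klk5 stays below the dotted bars throughout.

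The kallikreins did not share this course. Klk5, the trypsin-like kallikrein that activates Klk7, lay between 6.69 and 7.45 on all 27 Gene ST arrays and was not above background in any group. Klk7, the chymotrypsin-like kallikrein, spanned 7.92 to 8.67 over the same arrays, including those labelled lung. Klk8, also called neuropsin, averaged 8.52 ± 0.14 at E15.5 and 7.79 ± 0.09 at P7, the highest and lowest cornea ages (SD, n = 3 each). Klk10 averaged 8 ± 0.5 at E14.5 and 9.01 ± 0.06 at P14, its lowest and highest cornea ages. These probe sets moved by at most 1.01 on the log2 scale over the 7 ages.

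Across the 7 cornea ages 7 of the 10 genes were called changed, where 21.7% of all genes were. Those were the 5 Tmprss11 genes, Klk10 and Spink5. P28 corneas had 6 of the 10 called higher and 0 called lower than E14.5 corneas, beside 8.4% and 5.54% of all genes. The differences, P28 minus E14.5, were 7.71 for Tmprss11a, 7.69 for Tmprss11g, 6.42 for Tmprss11d, 6.3 for Tmprss11e, 4.07 for Tmprss11f and 3.6 for Spink5 on the log2 scale. None of these 6 genes was above background at E14.5, and all were at P28. Since the genes were chosen with these levels known, nothing is read from the counts.

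Other genes of the same pathways, from a list drawn up with earlier results of these data known, were tested. Of 60 measured protease, inhibitor and substrate genes, 24 were called changed over the 7 ages, where 21.7% of all genes were. The median span of the list was 0.62 on the log2 scale, beside 0.55 over all genes. P28 corneas had 21 called higher and 1 called lower than E14.5 corneas, beside 8.4% and 5.54% of all genes. The median difference was 0.01, beside -0.11 over all genes. Among membrane proteases, Tmprss11b, the neighbour of Tmprss11f and Tmprss11e, averaged 11.77 ± 0.13 at P28 and 5.31 ± 0.3 at E14.5 (SD, n = 3 each; adjusted p = 3.02e-12, limma). St14, encoding matriptase, rose by 2.41 (adjusted p = 4.14e-09), Prss8, encoding prostasin, by 2.28 and Tmprss2 by 2.17 on the same scale. Klk11 was the only other kallikrein called, with 9.78 ± 0.55 at P28 and 7.27 ± 0.67 at E14.5 (adjusted p = 7.58e-05, limma).

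By role, 6 of 19 membrane proteases, 1 of 8 kallikreins, 5 of 6 skin surface proteases, 6 of 18 inhibitors and 3 of 9 substrates and receptors were called higher. Of all genes, 8.4% were. Asprv1, the aspartic protease that processes filaggrin, averaged 12.83 ± 0.08 at P28 and 7.68 ± 0.44 at E14.5 (SD, n = 3 each; adjusted p = 2.92e-15, limma). The matriptase inhibitors Spint1 and Spint2 rose by 2.38 and 1.97, the cystatin Cst6 by 2 and Wfdc2 by 3.06 on the log2 scale. Among substrates, the desmosomal cadherin gene Dsg1b rose by 4.73 (adjusted p = 1.92e-09) and Scnn1a, the sodium channel subunit that membrane proteases cleave, by 2.61. F2r, the thrombin receptor gene, was the one called lower, with 9.5 ± 0.25 at P28 and 10.64 ± 0.18 at E14.5 (adjusted p = 0.00965, limma).

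The cell content of these corneas changed as well. Corneal epithelium markers had 5 of 5 genes above background and array means of 13.43 to 13.53 at P28, against 1 of 5 and 7.29 to 7.58 at E14.5, with Krt12 at 5.99 ± 0.06 at E14.5. Stratified epithelium markers had 9 of 9 above background and means of 12.02 to 12.18 at P28, against 5 of 9 and 7.27 to 8.87 at E14.5. Erythroid markers were above background for 1 of 4 genes at P28 (7.34 to 7.47) and 4 of 4 at E14.5 (11.49 to 12.09), and lens markers for 6 of 6 at both ages (8.78 to 11.12 at P28 and 10.22 to 14.06 at E14.5). The part of these cells in the gene changes was not tested.

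The first step, E15.5 corneas against E14.5 corneas, had 4 of the 10 genes called higher (Tmprss11g, Tmprss11d, Tmprss11f and Spink5) and 0 lower, beside 5.3% and 2.26% of all genes. Tmprss11g differed by 3.07, Tmprss11d by 1.95, Spink5 by 1.65 and Tmprss11f by 1.16 on the log2 scale, and Tmprss11a by 0.67 with overlapping arrays. Of these only Spink5 was above background at E15.5, and none was at E14.5, so the sizes for the Tmprss11 genes are differences between levels that cannot be told from background. Without E15.5 replicate 2 the Tmprss11f difference was 0.95, under 2-fold. Of the 60 other genes 10 were called higher and 0 lower, with a median difference of 0.04 beside -0.02 over all genes. They included Asprv1 (11.98 ± 0.41 at E15.5 and 7.68 ± 0.44 at E14.5, SD, n = 3 each; adjusted p = 2.47e-13, limma), Dsg1b (rise of 3.64), Tmprss11b (3.05), Htra1 (3.27), a secreted serine protease, and Ctsl (1.68), a lysosomal cysteine protease. Corneal epithelium markers had 5 of 5 genes above background and means of 11.23 to 11.87 at E15.5, against 1 of 5 and 7.29 to 7.58 at E14.5. Skeletal muscle markers were uneven, at 7.94 to 11.66 in E15.5 corneas and 9.5 to 10.84 in E14.5 corneas. Lens markers had 2 of 6 genes above background and means of 6.67 to 7.89 at E15.5, against 6 of 6 and 10.22 to 14.06 at E14.5. Erythroid markers had 1 of 4 and 7.7 to 8.98 at E15.5, against 4 of 4 and 11.49 to 12.09 at E14.5, and the part of these cells in the result was not tested.

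Between P3 and P7 the levels of Tmprss11a, Tmprss11d, Tmprss11e and Tmprss11g separated, while those of Tmprss11f overlapped. P7 corneas had 5 of the 10 genes called higher and 0 lower than P3 corneas, beside 0.868% and 0.557% of all genes. This comparison was added after the levels were seen, so the counts show no more than the levels do. Tmprss11d differed by 4.82, Tmprss11a by 3.24, Tmprss11e by 3.14, Tmprss11g by 2.14 and Spink5 by 1.06, P7 minus P3 on the log2 scale. All of these genes were above background at P7, but at P3 only Tmprss11g was, so the sizes of the other differences are uncertain. The Tmprss11a difference was 2.52 without P3 replicate 2, the lowest P3 array, and 3.91 without P3 replicate 1, the highest. That of Spink5 was 0.55, under 2-fold, without P7 replicate 2. Among the 60 other genes 3 were called higher and 0 lower, namely Tmprss11b (10.36 ± 0.4 at P7 and 8.79 ± 0.64 at P3; adjusted p = 0.0103), Wfdc2 (10.69 ± 0.21 and 9.15 ± 0.34; adjusted p = 0.00472) and Epcam (10.77 ± 0.14 and 9.56 ± 0.63; adjusted p = 0.0184), an epithelial adhesion gene whose product matriptase cleaves (SD, n = 3, P7 before P3 in each pair, limma). Without P7 replicate 2 the count was 1. Klk12 was lower by less than 2-fold, at 8.26 ± 0.23 in P7 corneas and 8.91 ± 0.17 in P3 corneas (adjusted p = 0.00501, limma). The median difference of the list was 0.04, beside 0.02 over all genes, and corneal epithelium markers had means of 12.4 to 12.78 at P7, against 11.14 to 11.24 at P3. Lens markers had 1 of 6 genes above background and means of 7.6 to 8 at P7, against 6 of 6 and 9.21 to 10.36 at P3, and the part of either list was not tested.

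P14 corneas had 0 of the 10 genes called higher or lower than P7 corneas in the limma fit, where 0.01% of all genes were called higher and 0.00502% lower, and 0 of the 10 had an unadjusted p under 0.05. Among the 60 other genes 0 were called and 9 had an unadjusted p under 0.05, with a median difference of 0.11 beside 0.01 over all genes. No share of all genes with such an unadjusted p is given beside these counts, so nothing is read from them. The largest difference among them was that of Asprv1, with 12.62 ± 0.11 at P14 and 11.67 ± 0.24 at P7 (SD, n = 3 each; adjusted p = 0.118, limma). Without P7 replicate 2, 1 of the 60 was called.

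**Figure D2:**
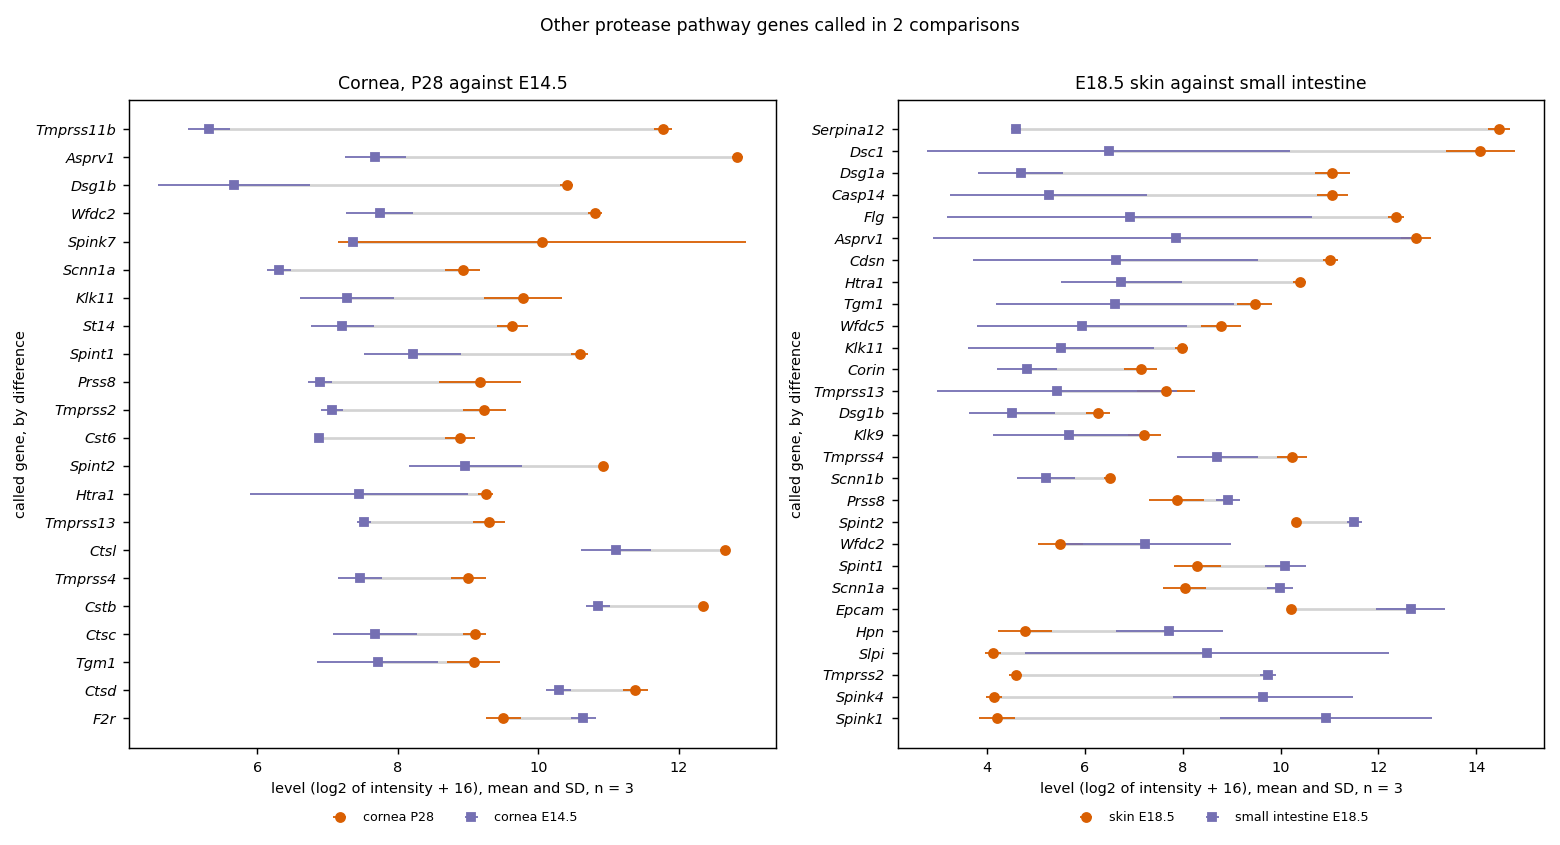
Mean levels (log2 of intensity + 16) with SD over 3 arrays of the other protease, inhibitor and substrate genes called in P28 corneas against E14.5 corneas (left) and in E18.5 skin against small intestine (right), ordered by difference. At left 21 of 22 genes lie higher at P28, led by Tmprss11b at 11.77 in P28 corneas and 5.31 in E14.5 corneas; at right 17 lie higher in skin and 11 lower.

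In the trachea Tmprss11a read 9.33, 9.84 and 7.54, against 5.43, 5.18 and 5.57 on the arrays labelled lung. Tmprss11g read 6.92, 7.28 and 5.73 in trachea, against 4.45, 5.34 and 5.23, and Klk10 9.19, 9.15 and 9.27, against 7.7, 7.69 and 7.83. None of these arrays overlapped between the groups, and trachea replicate 3 was the lowest tracheal array for both Tmprss11 genes. In trachea Tmprss11a and Klk10 were above background and Tmprss11g was not, and on the arrays labelled lung none of them was. The Tmprss11a difference was 3.51 on the log2 scale and 4.2 without that array. Tmprss11d averaged 6.95 ± 0.13 in trachea and 6.65 ± 0.19 on the arrays labelled lung (SD, n = 3 each), neither above background.

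For trachea against the arrays labelled lung, 3 of the 10 genes were called higher and 0 lower, beside 10.8% and 5.26% of all genes. Among the 60 other genes 7 were called higher and 3 lower, and the median difference was -0.06, as over all genes (-0.06). Tmprss11b averaged 8.82 ± 0.95 in trachea and 5.32 ± 0.22 on the arrays labelled lung (SD, n = 3 each; adjusted p = 4.27e-08, limma). Wfdc2 rose by 3.84, Klk11 by 3, Prss8 by 2.9 and Htra1 by 2.82, while Dsg1b fell by 1.66 and the cystatin gene Cstb fell by 1.49. Stratified epithelium markers had means of 9.9, 10.17 and 8.68 in trachea replicates 1 to 3, against 7.69 to 7.81 on the arrays labelled lung. Thymocyte markers had 7.27 to 7.29 in trachea, against 12.6 to 12.67. Cartilage markers had 12.23 to 12.47 in trachea, against 7.73 to 7.82, and skeletal muscle markers 13.17 to 13.53, against 8.09 to 8.58. The part of these lists in the differences was not tested.

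**Figure D3:**
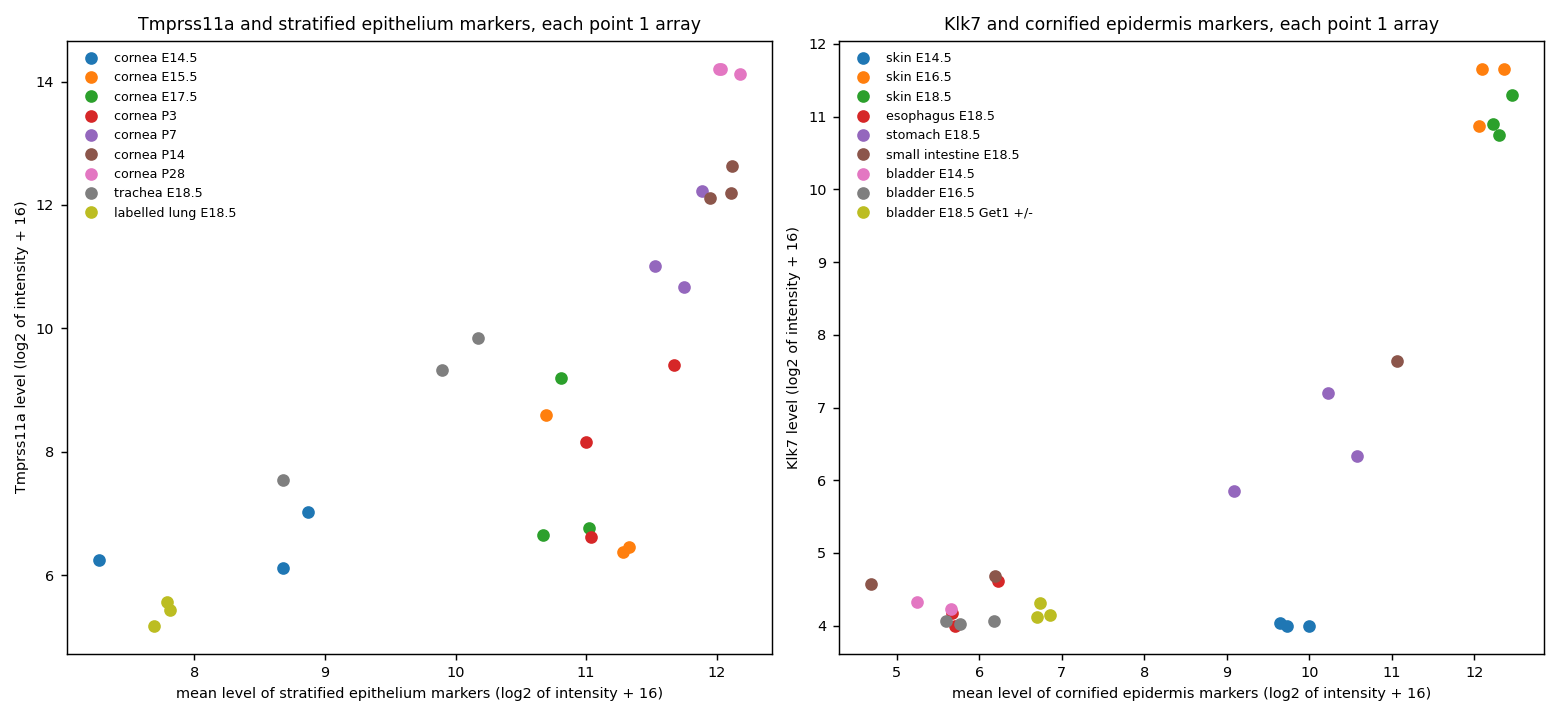
Level of Tmprss11a against the mean level of 9 stratified epithelium markers on the Gene ST arrays (left), and of Klk7 against the mean of 6 cornified epidermis markers on the 3′ arrays (right); both axes are log2 of intensity + 16 and each point is 1 array. At left the P28 corneas lie at 14.12 to 14.21 for Tmprss11a and 12.02 to 12.18 for the markers; at right E14.5 skin has marker means of 9.64 to 10 with Klk7 at 4 to 4.04.

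Among the E18.5 tissues of the 3′ table, Tmprss11a was found in the upper digestive tract. It read 11.06, 12.14 and 12.35 in esophagus, 9.44, 9.66 and 9.49 in stomach, 6.45, 6.03 and 6.21 in Get1 +/- bladder and 4.24, 4.38 and 4.04 in skin, and 4, 4 and 7.68 in small intestine replicates 1, 3 and 4. The arrays of esophagus, stomach and bladder did not overlap one another, and the only small intestine array away from the floor was replicate 4. Tmprss11g read 8.05, 9.41 and 9.06 in esophagus, against 7.12, 7.19 and 7.09 in stomach, and its probe set is of a type that can also bind related transcripts. Tmprss11f read 6.36, 5.91 and 6.67 in esophagus, against 7.9, 8.56 and 8.79 in stomach, and so ran the other way. Tmprss11d and Tmprss11e overlapped between esophagus and stomach (means of 6.63 and 6.44 for Tmprss11d, 6.83 and 6.72 for Tmprss11e).

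The kallikreins were low in the esophagus. Klk5 read 4.01, 4.04 and 4.14 in esophagus, against 5.27, 7.23 and 7.7 in stomach, and Klk7 read 4, 4.18 and 4.61, against 5.85, 7.2 and 6.34. Both groups of arrays were apart for each gene, and stomach replicate 1 was the lowest stomach array for both. Klk10 averaged 5.45 ± 0.69 in esophagus and 7.11 ± 0.18 in stomach (SD, n = 3 each). Spink5 overlapped, with 7.86, 10.95 and 9.56 in esophagus and 8.72, 10.36 and 10.55 in stomach.

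Esophagus had 2 of the 10 genes called higher and 3 lower than stomach, beside 2.8% and 4.25% of all genes. The called differences were 2.32 for Tmprss11a, 1.71 for Tmprss11g, and -2.1 for Tmprss11f on the log2 scale. Klk5 and Klk7 were called lower from esophagus levels at the floor, with deposited intensities of 0.36, 1.19 and 1.98 for Klk5 and 0, 3.54 and 10.58 for Klk7, so the size of their differences is not given. Among 52 other measured genes 0 were called higher and 10 lower, with a median difference of -0.46 beside -0.04 over all genes. Flg, the filaggrin gene, averaged 4.66 ± 0.35 in esophagus and 10.49 ± 0.81 in stomach (SD, n = 3 each; adjusted p = 0.000437, limma). Slpi, a leukocyte protease inhibitor, fell by 5.55, Dsg1b by 3.63, and Klk13 and Klk12 fell by 3.35 and 2.81. Cornified epidermis markers had 3 of 6 genes above background and means of 5.67 to 6.23 in esophagus, against 6 of 6 and 9.09 to 10.58 in stomach, and gastric gland markers 0 of 5 (4.34 to 4.58), against 5 of 5 (9.26 to 10.95), and their part in these differences was not tested.

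**Figure D4:**
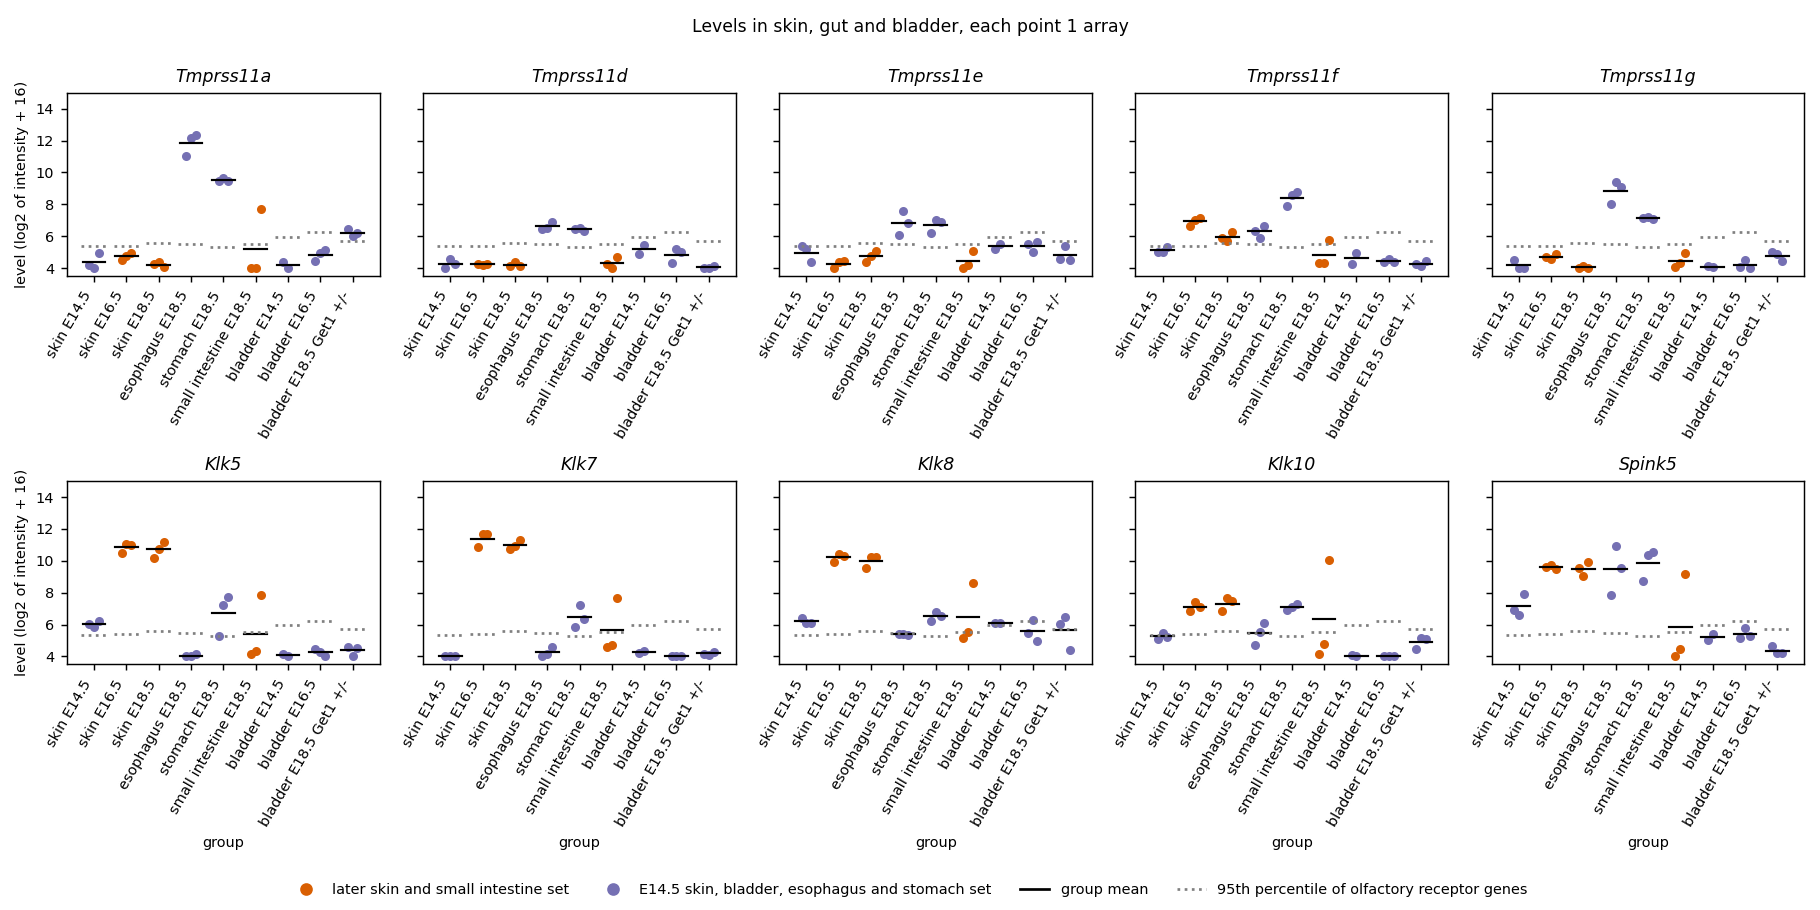
Level of each gene (vertical axis, log2 of intensity + 16) by group on the 3′ arrays; points are arrays, coloured by the 2 array sets, black bars are group means and dotted grey bars the 95th percentile of olfactory receptor genes. Klk5, Klk7 and Klk8 lie at 9.57 to 11.66 in E16.5 and E18.5 skin, Tmprss11a at 11.06 to 12.35 in esophagus, and small intestine replicate 4 is the high point of that tissue in every panel.

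On the 3′ arrays Klk5, Klk7 and Klk8 had their highest group means in skin, at E16.5 and E18.5. Klk5 read 6.01, 5.84 and 6.24 at E14.5, 10.46, 11.08 and 10.99 at E16.5, and 10.2, 10.72 and 11.2 at E18.5. Klk7 read 4.04, 4 and 4 at E14.5, where its deposited intensity was listed at 0 or next to it, 10.87, 11.66 and 11.65 at E16.5, and 10.74, 10.9 and 11.3 at E18.5. Klk8 read 6.44, 6.08 and 6.11 at E14.5, 9.93, 10.41 and 10.33 at E16.5, and 9.57, 10.22 and 10.21 at E18.5. For all of them the E16.5 and E18.5 arrays overlapped, and both ages were above E14.5, which lies in the other array set.

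Spink5 was above background at all 3 ages, with 6.92, 6.6 and 7.89 at E14.5, 9.64, 9.72 and 9.51 at E16.5, and 9.53, 9.07 and 9.91 at E18.5. Klk10 averaged 5.26 ± 0.22 at E14.5, 7.13 ± 0.3 at E16.5 and 7.32 ± 0.43 at E18.5 (SD, n = 3 each). Stomach, in the other array set from the later skin, had Klk5, Klk7, Klk8 and Klk10 above background too. Its Klk10 arrays, 6.94 to 7.3, overlapped those of E16.5 and E18.5 skin. Of the Tmprss11 genes, only Tmprss11f was above background in skin, at E16.5 and E18.5 and not at E14.5. It read 5, 5.03 and 5.33 at E14.5, 6.67, 7.04 and 7.16 at E16.5, and 5.88, 5.69 and 6.26 at E18.5, its 3 ages not overlapping. Tmprss11a, Tmprss11d, Tmprss11e and Tmprss11g lay between 4 and 5.38 on all 9 skin arrays.

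E18.5 skin had 0 of the 10 genes called higher and 1 lower (Tmprss11f, by -1.02 on the log2 scale) than E16.5 skin, beside 2.44% and 2% of all genes, a comparison inside 1 array set. With 1 array left out, that Tmprss11f difference lay between -1.17 and -0.89, so that it passed 2-fold in some of these fits only. Among 52 other genes 1 was called higher and 1 lower, with a median difference of 0.08 beside 0.03 over all genes. Corin, a membrane protease known for processing a natriuretic peptide, averaged 7.14 ± 0.34 at E18.5 and 5.41 ± 0.18 at E16.5 (SD, n = 3 each; adjusted p = 0.00223, limma). Scnn1a averaged 8.04 ± 0.44 at E18.5 and 9.12 ± 0.13 at E16.5 (adjusted p = 0.0292, limma), a call lost when any 1 of 4 of the 6 arrays was left out.

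E16.5 skin against E14.5 skin had 5 of the 10 genes called higher and 0 lower, but 18.2% and 25% of all genes were called there too, and the array set and the age cannot be told apart. Klk5 differed by 4.81, Klk8 by 4.01, Spink5 by 2.48 and Tmprss11f by 1.84 on the log2 scale; for Klk7, listed at 0 at E14.5, no fold is given. Among 52 other genes 19 were called higher and 4 lower, with a median difference of 0.49 beside -0.18 over all genes. The highest rises included the cornified layer genes Dsc1 (by 7.99), Flg (by 6.77) and Cdsn (by 6.73), whose products include the targets of Klk5 and Klk7, and Serpina12, encoding the Klk7 inhibitor vaspin, at 13.85 ± 0.49 at E16.5 and 4.68 ± 0.44 at E14.5 (SD, n = 3 each; adjusted p = 8.52e-18, limma). Cornified epidermis markers had means of 12.06 to 12.36 at E16.5, against 9.64 to 10 at E14.5, and enterocyte markers 4.42 to 4.62 at E16.5, against an uneven 4.67 to 7.67 at E14.5, and their part was not tested.

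Inside its own array set, E18.5 skin could be set against small intestine, of which replicate 4 held stratified, cornified and gastric markers. Cornified epidermis markers averaged 11.06 in replicate 4, against 4.69 and 6.19 in replicates 1 and 3. Klk5 read 10.2, 10.72 and 11.2 in skin, against 4.15, 4.32 and 7.86 in small intestine replicates 1, 3 and 4. Klk7 read 10.74, 10.9 and 11.3 in skin, against 4.57, 4.69 and 7.64, and Klk8 read 9.57, 10.22 and 10.21, against 5.18, 5.53 and 8.63. Every skin array was above all 3 small intestine arrays for these kallikreins, with replicate 4 the nearest. Spink5 read 9.53, 9.07 and 9.91 in skin, against 4, 4.46 and 9.15, and Klk10 read 6.83, 7.65 and 7.49, against 4.16, 4.78 and 10.03. Replicate 4 thus reached into the skin range for Spink5 and lay above every skin array for Klk10.

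The differences, skin minus small intestine, were 5.27 for Klk5 (6.47 without replicate 4), 5.35 for Klk7 (6.36), 3.55 for Klk8 (4.64), 3.63 for Spink5 (5.27) and 1.13 for Tmprss11f (1.62) on the log2 scale. The lowest values with another array left out were 4.62 for Klk5, 4.82 for Klk7, 2.92 for Klk8, 2.7 for Spink5 and 0.87, under 2-fold, for Tmprss11f. In small intestine Klk5 and Tmprss11f were not above background. For Klk7, Klk8 and Spink5 only replicate 4 exceeded the background level of 5.54. The sizes of these differences are thus uncertain, with or without replicate 4. E18.5 skin had 5 of the 10 genes called higher and 0 lower than small intestine, beside 8.99% and 10.2% of all genes. Among 52 other genes 17 were called higher and 11 lower, as many with replicate 4 left out, and the median difference was 0.25 beside 0.04 over all genes. Serpina12 averaged 14.46 ± 0.22 in skin and 4.59 ± 0.1 in small intestine (SD, n = 3 each; adjusted p = 6.12e-18, limma). Casp14, the caspase of cornification, rose by 5.8, Htra1 by 3.64 and Klk11 by 2.46. Lower in skin were Tmprss2, at 4.59 ± 0.13 in skin and 9.74 ± 0.16 in small intestine (adjusted p = 3.32e-07, limma), Hpn, encoding hepsin, which fell by 2.95, and the pancreatic-type inhibitors Spink1 and Spink4, which fell by 6.72 and 5.48. Enterocyte markers had means of 4.36 to 4.47 in skin and 9.99 to 12.73 in small intestine. In the same order of tissues, skeletal muscle markers had 12.01 to 12.58 and 5.38 to 6.46, and lung alveolar and airway markers 5.07 to 8.49 and 5.8 to 6.55. The part of these lists was not tested.

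E18.5 skin against esophagus crossed the array sets, so tissue and set cannot be told apart. There 3 of the 10 genes were called higher (Klk5, Klk7 and Klk8) and 4 lower (Tmprss11a, Tmprss11g, Tmprss11d and Tmprss11e), where 23.3% and 25.7% of all genes were called. The kallikreins were not above background in esophagus, nor these Tmprss11 genes in skin. Tmprss11a differed by -7.63 and Tmprss11g by -4.78 on the log2 scale, while the Spink5 arrays of skin lay within the esophagus range. Among 52 other genes 23 were called higher and 9 lower, with a median difference of 0.81 beside -0.08 over all genes. Wfdc2 was the inhibitor with the greatest fall, at 5.5 ± 0.46 in skin and 9.74 ± 0.3 in esophagus (SD, n = 3 each; adjusted p = 5.75e-07, limma).

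Few of these genes were above background in bladder. Klk8 was at E14.5, with 6.07 and 6.08, and not at E16.5 (5.49, 6.31 and 4.97) or E18.5 (6.03, 6.46 and 4.43). Klk7 lay between 4.03 and 4.32 on all 8 bladder arrays and Klk5 between 4 and 4.6. Tmprss11a read 4.41 and 4.03 at E14.5, 4.46, 4.92 and 5.16 at E16.5, and 6.45, 6.03 and 6.21 in the E18.5 Get1 +/- bladders, where it alone was above background. Its bladder arrays did not overlap between ages. E16.5 bladders had 0 of the 10 genes called higher or lower than E14.5 bladders, beside 0.269% and 0.0715% of all genes, and 0 had an unadjusted p under 0.05 in limma. Among 52 other genes 0 were called and 2 had an unadjusted p under 0.05, with a median difference of 0.06 beside 0.02 over all genes. Here too, no share of all genes with such an unadjusted p is given, so nothing is read from these counts. Urothelium markers had means of 8.26 to 8.4 at E16.5, against 7.28 to 7.45 at E14.5, all 5 genes above background at both ages.

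The change of skin from E14.5 to E16.5 minus that of bladder had 4 of the 10 genes (Klk5, Klk7, Klk8 and Tmprss11f) called higher and 0 lower, beside 16.9% and 25.2% of all genes, with the skin change again lying across the array sets. Klk5 differed by 4.64, Klk8 by 4.5 and Tmprss11f by 1.99 on the log2 scale. Among the 52 other genes 18 were called higher and 6 lower, with a median of 0.39 beside -0.2 over all genes. Serpina12 differed by 9.45 (adjusted p = 2.05e-14, limma interaction contrast) and St14 by 1.76 (adjusted p = 0.00378).

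Genes whose group means ran most like those of a member were sought among genes with a span of at least 2 on the log2 scale, over the 9 groups of each table, as a description only. On the Gene ST arrays the closest to Tmprss11a were Bcas1 (Pearson r of 0.992), Acsm1 (0.984), Sh3bgrl2 (0.983), Per3 (0.978) and Plscr4 (0.974), among 3880 candidates. The closest to Spink5 were Ephx3 (0.991), Sh3gl2 (0.987), Lipm (0.986), Fam83b (0.979) and Lama3 (0.975). On the 3′ arrays the closest to Klk7 among 8057 candidates were Nkpd1 (0.997), Rnf225 (0.993), Lce1m (0.991), Il1f8 (0.989) and Cdsn (0.987), the last encoding corneodesmosin, which Klk7 cuts. The closest to Tmprss11a there were Upb1 (0.977) and Adam28 (0.975). These 3′ correlations run over groups of both array sets, and the skin ages with the highest Klk7 levels lie in the same set. Group and set therefore cannot be told apart in them.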

How the data were processed

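RNA of 53 mouse tissue samples was measured on 2 types of Affymetrix array. The authors deposited linear intensity values per probe set. Per the submitters' processing notes, the software was Expression Console 1.1.1 of Affymetrix and the method PLIER 2.0; how arrays were scaled to each other is not stated there. Tables were analysed separately. Intensities became log2(value + 16), which understates folds of dim genes, and were quantile-normalized; deposited intensities spanned 0 to 134761.86. Probe sets with 1 gene were named from the platform annotation (34958 of 45101 on 3′ arrays, 21789 of 35556 on Gene ST arrays; over 99% of symbols found in RefSeq), and the brightest represents a gene. The number of arrays limits the precision.

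limma 3.58.1 in R 4.3.3 (lmFit, eBayes over all groups of a table) gave two-sided moderated tests with Benjamini-Hochberg adjustment. It was tested on simulated data. Other pathway genes named are, per comparison and role, up to 4 called genes with the largest change and arrays that do not overlap, or the largest change where none was called. Motifs and promoters shown were chosen by hand. The genes and lists were chosen with earlier results of these data known. Replicate numbers were not used to pair arrays in the main fits. In the cornea, trachea and esophagus comparisons checked, none had every same-numbered correlation of deviations over 0.1, which does not exclude shared animals. For esophagus against stomach the same-numbered values, 0.064, 0.088 and 0.13, were all above the others, -0.107 to 0.04. E14.5 skin replicates 1 and 2 may be 1 sample, and their mean was an alternative. Alternatives were deposited values, pseudocount 1, a filter on dim genes, the mean of probe sets, only the groups compared, each array left out, the replicate block and each array set alone.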

Additional observations from a re-analysis of the deposited data

Results flagged for a closer look

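Skin and bladder differed in how they changed between E14.5 and E16.5 for 24 of the 52 other protease, inhibitor and substrate genes in the limma interaction contrast. Of all genes, 16.9% were called higher and 25.2% lower in that contrast, so the count is not read as particular to the list. For Klk7 every E16.5 skin array was above every E14.5 skin array while every E16.5 bladder array was below every E14.5 bladder array, and skin minus bladder was 7.61 on the log2 scale. The limma interaction contrast called Klk7 higher, but its levels in E14.5 skin (4 to 4.04) and in E16.5 and E14.5 bladder lay at or near the floor of 4, not above background, so the size is uncertain. The skin change lies across the array sets, so age and set cannot be told apart. No group had the 4 or more arrays that a search for single outlying arrays needs.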

How the results depend on the processing

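Of the counts of called genes, those for cornea over 7 ages (24, range 23 to 24), P28 against E14.5 corneas (22, 20 to 22), trachea against the arrays labelled lung (10, 10 to 11), E16.5 against E14.5 skin (23, 23 to 27), skin against esophagus (32, 29 to 35), esophagus against stomach (10, 10 to 14), P7 against P3 corneas (3, 2 to 3), P14 against P7 corneas (0), E16.5 against E14.5 bladder (0) and the interaction (24, 21 to 26) stayed within 1.5 times the value given under every alternative other than leaving out an array. The count for E15.5 against E14.5 corneas moved to 6, against 10, with the replicate block and only the groups compared. With the replicate block the count was 24 for cornea over 7 ages and 14, against 10, for esophagus against stomach. The labels do not say whether same-numbered arrays share an animal. E18.5 against E16.5 skin had 1 call with a pseudocount of 1 and 4 with only the groups compared, against 2. Skin against small intestine had 16 with only the groups compared, against 28; the cause was not tested beyond that this fit holds fewer arrays. Leaving out 1 array gave 1 to 4 calls for P7 against P3 corneas, 0 to 1 for P14 against P7 corneas and 1 to 2 for E18.5 against E16.5 skin. Of 1140 values of member differences under alternatives 1092 moved by less than the spread between arrays, 48 moved by more and 0 turned in sign among called ones. The alternative with a second probe set per gene could not be run for the 10 genes, since each has 1. The alternative with each array set on its own was chosen after seeing the data, and gave counts within 1.5 times in each comparison inside 1 set. Levels near the olfactory gauge cannot be told from background.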
